A study of Homo sapiens with 6 samples.

Results

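The genes described here are the nuclear-encoded members of the mitochondrial respiratory chain and of ATP synthase, with the factors that assemble them. They were chosen by name, as gene symbols that start with NDUF, UQCR, UQCC, COX and a digit, SDHA to SDHD or ATP5, together with CYC1 and CYCS. Names with a hyphen and names with a pseudogene suffix were left out, and a mean of at least 10 counts over the 6 libraries was required. The rule found 106 members among the 27754 genes of the count files. Another 6 genes had a fitting name and fell short of the minimum. COX7A1 and COX6A2 had a mean of 0 counts, COX4I2 of 0.167, COX8C of 0.333, ATP5L2 of 0.667 and SDHAF3 of 1.5. The members just above it were COX6B2, with a mean of 11.8 counts, and NDUFA4L2, with 112.

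The study asked how T47D cells, an established luminal breast cancer line that carries the estrogen and progesterone receptors, respond to low oxygen. RNA was sequenced from 3 libraries of cells kept in ordinary culture at 20% O2 (normoxia) and 3 libraries of cells held at 0.5% O2 for 48 h (hypoxia), by the labels of the libraries. The text of the study gives another oxygen level for these hypoxic cells, and the labels are followed here. Both conditions are the same line in adherent culture in RPMI with serum, without a genetic change, so the results describe a single tumor line.

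Electrons from NADH enter the chain at complex I and those from succinate at complex II. They pass through ubiquinone, complex III, cytochrome c and complex IV to oxygen, and the protons pumped on the way drive ATP synthase, which is also called complex V. Most subunits are encoded in the nucleus and a core set in mitochondrial DNA. Cells that lack oxygen are known to shift ATP production to glycolysis through the hypoxia-inducible factors (HIF), which bind hypoxia response elements in DNA, and HIF is known to induce NDUFA4L2 in several cell types and COX4I2 in some. The mitochondrially encoded subunits are not analysed here.

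Total counts were 32989104 to 40943424 in normoxia and 34640756 to 89883409 in hypoxia. Levels below are in CPM, counts scaled to a common library total and then normalized between libraries. Before that normalization, 3 counts in a library corresponded to 0.0334 to 0.0909 CPM. The 8 genes kept as a check of hypoxia, among them VEGFA, CA9 and the glucose transporter SLC2A1, were all higher in the hypoxia libraries, by 1.80 to 5.51 on the log2 scale. Luminal markers were present in every library, with a summed level of 14026.4 to 18221.7 CPM in normoxia and 10442.8 to 13729.3 CPM in hypoxia. Of the 10, 4 (40%) were lower, including ESR1 and PGR, while ELF3 was higher (log2 fold change 1.79, adjusted p = 3.10e-04). Of all tested genes 29.1% were lower and 30.4% higher. Of 9 mesenchymal or basal markers 4 had enough counts for a test, with adjusted p of 0.391 to 0.987. Their summed levels of 84.3 to 111.5 CPM against 79.2 to 114.9 CPM were nearly all COL1A1, and CAV1 was higher with the replicate block (adjusted p = 0.0411). Of the markers too low for the test, KRT5, ZEB1 and LUM lay above normoxia in all hypoxia libraries, at no more than 0.46, 0.273 and 0.082 CPM. COL1A2 and KRT14 overlapped. Of all tested genes 34.9% were separated upward in this way. Of the leukocyte markers, CD68 had 1 to 1.67 CPM in normoxia and 6.1 to 7.98 CPM in hypoxia, CD3E had at most 0.109 CPM in any library, and the defining gene PTPRC had no count in the normoxia libraries and at most 0.0988 CPM in hypoxia.

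Replicate 3 of each condition stood apart from the other libraries. Its counts differed from those of replicates 1 and 2 of the same condition by a chi-square of 36.6 to 72.6 per degree of freedom, against 8.47 for normoxia 1 and 2 and 6.38 for hypoxia 1 and 2. Vimentin (VIM) had 12.8 CPM in normoxia 3 and 11 CPM in hypoxia 3, and no more than 0.957 CPM in the others. The part of this difference in the results below was not tested, and counts of calls are also given without replicate 3. The labels do not say whether the libraries of a condition come from separate cultures. The study's legend to the figure with the RNA sequencing states that its data are from independent experiments. The p-values measure the spread between these libraries.

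Most respiratory chain genes were lower in hypoxia. Of the 105 members with enough counts for a test, 87 were lower and 3 were higher by edgeR's quasi-likelihood test (Benjamini-Hochberg adjusted p under 0.05 over 15657 genes). Lower members were 82.9% of those tested, where 29.1% of all tested genes were lower, and higher members were 2.86%, where 30.4% of all genes were higher. The median log2 fold change of the members was -0.66, a level of 0.633 times that in normoxia, against 0.028 for all tested genes. In all, 100 of the 105 fold changes were negative. As the RNA of a whole culture was measured relative to all counts, less RNA of these genes in every cell and fewer cells that express them cannot be told apart.

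In normalized CPM, the 3 hypoxia libraries lay below the 3 normoxia libraries for 90 of the 106 members and above them for 4. Of all tested genes 32.4% and 34.9% were separated in those directions. The 4 include COX6B2, which met the minimum for members through its hypoxia libraries and was too low for the test. A decrease of at least 1 on the log2 scale was found for 13 of the lower members, where 4.91% of all tested genes were lower and 15.2% higher by that much. With the replicate number as a block, 95 members were lower and 4 higher, where 35.2% and 36.6% of all genes were called. Without replicate 3 of each condition 94 were lower and 3 higher, where 34.8% and 36.4% of all genes were called. Upper-quartile scaling moved the median of all genes up by 0.16, and with it 80 members were lower and 3 higher, where 21% of all genes were lower and 38.1% higher.

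**Figure D1:**
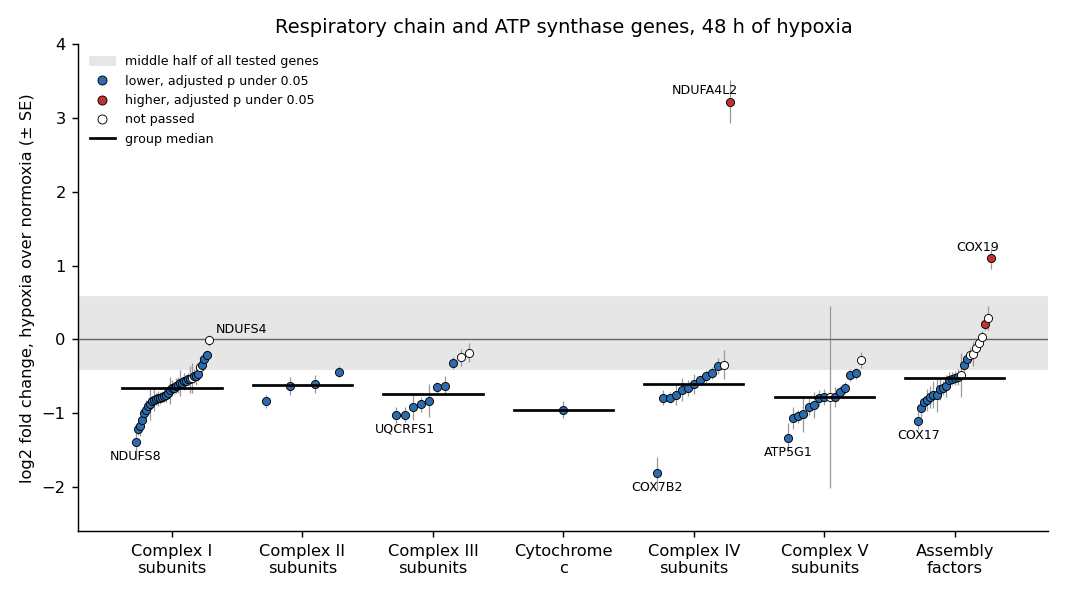
Log2 fold change of each tested member, hypoxia over normoxia, by complex, with its standard error as a vertical line. Blue points are lower and red points higher at an adjusted p under 0.05, white points did not pass, thick bars are group medians and the grey band runs from the lower to the upper quartile of all tested genes (-0.40 to 0.58). Group medians lie between -0.52 (assembly factors) and -0.95 (cytochrome c), and NDUFA4L2 at 3.22 and COX19 at 1.10 stand above the others.

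The share of all counts taken by the members gives the same comparison without a fit. It was 1.36%, 1.35% and 1.5% in the normoxia libraries and 0.923%, 0.934% and 1.05% in the hypoxia libraries. The conditions did not overlap, with means of 1.40% ± 0.0809 and 0.969% ± 0.0698 (SD, n = 3; exact permutation p = 0.1, two-sided, the smallest that 3 against 3 allows). ATP synthase took the largest share of counts, 0.434% ± 0.0304 in normoxia and 0.278% ± 0.0234 in hypoxia. Complex I followed, with 0.377% ± 0.0149 and 0.259% ± 0.0136, then complex IV with 0.206% ± 0.00710 and 0.154% ± 0.0160. Complex III took 0.168% ± 0.0139 and 0.115% ± 0.0112 and complex II 0.0798% ± 0.00535 and 0.0570% ± 0.00463. In each of these groups the highest hypoxia library, replicate 3, lay below the lowest normoxia library. The order of the complexes is that of counts, which depend on gene length. Scaled for length, complex I had the highest sum in every library. In hypoxia its sum was 6153.3, 6192.9 and 6713.7 TPM (counts over gene length, scaled to a fixed total). Complex IV followed with 5508.1, 5501.1 and 6475.5 TPM, then ATP synthase with 4908.9, 4918.7 and 5676.5 TPM.

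**Figure D2:**
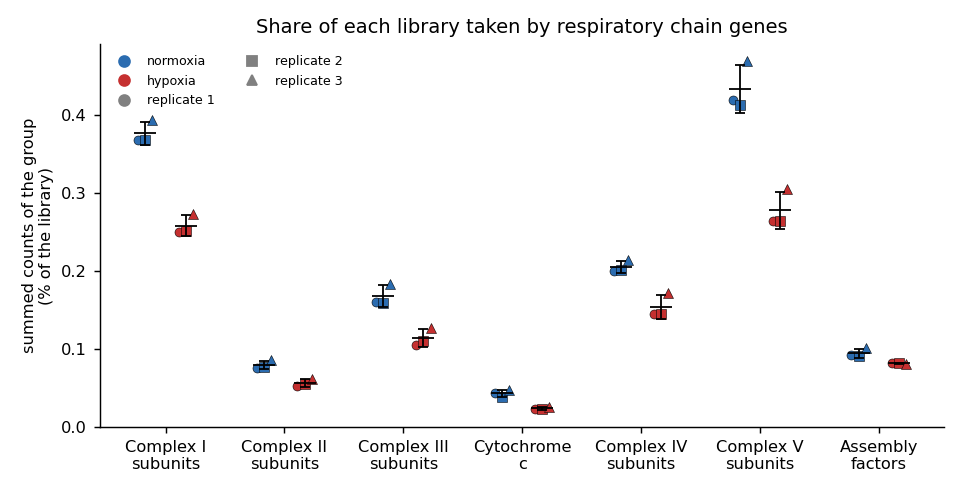
Summed counts of each group as a percentage of all counts of the library, with 1 point per library, the mean as a horizontal bar and the SD as the error bar (n = 3). Blue is normoxia and red hypoxia, and circles, squares and triangles are replicates 1, 2 and 3. Replicate 3 is the highest library of each condition for every complex, and the 2 conditions do not overlap.

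Complex I, which oxidizes NADH, had 37 nuclear-encoded subunits among the members, of which 34 were lower. The median log2 fold change was -0.66, and the fold changes of all 37 were negative. All 7 core subunits, those with counterparts in bacteria, were lower, with a median of -0.72, as were 27 of 30 accessory subunits, with a median of -0.64. NDUFV1, which carries the NADH binding site, was measured at 238.8, 233.6 and 255.1 CPM in normoxia and at 159.9, 160.1 and 194.3 CPM in hypoxia. Its highest hypoxia library lay below its lowest normoxia library, and its log2 fold change was -0.50 (SE 0.0962, adjusted p = 0.003). NDUFS1, the largest iron-sulfur subunit, fell from 173.2, 172.0 and 192.8 CPM to 86.5, 86.2 and 96.0 CPM, a log2 fold change of -1 (SE 0.0832, adjusted p = 9.48e-05).

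The iron-sulfur subunit NDUFS8 (chr11:67798084-67804114, plus strand, GRCh37) showed the lowest fold change of complex I. It had 114.3, 106.8 and 156.2 CPM in normoxia and 40.1, 36.5 and 67.2 CPM in hypoxia, with replicate 3 the highest library of both conditions. The log2 fold change was -1.39 (SE 0.246, adjusted p = 0.00207). The accessory subunits NDUFS5 (-1.22, adjusted p = 4.79e-05) and NDUFS6 (-1.17, adjusted p = 3.57e-04) were next. For NDUFS5 the libraries of a condition lay close together, at 117.9, 114.5 and 117.6 CPM in normoxia and 48.0, 47.7 and 54.5 CPM in hypoxia.

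At the other end of complex I, NDUFB5 was lower by the smallest amount that passed, with a log2 fold change of -0.21 (adjusted p = 0.0345). NDUFS4, an accessory subunit of the NADH-oxidizing arm, did not pass and is named after its values were seen. It had 62.5, 64.5 and 57.7 CPM in normoxia and 60.9, 63.1 and 59.1 CPM in hypoxia, so that the conditions overlapped. Its log2 fold change was -0.013 (SE 0.0780, adjusted p = 0.899), and 0.14 with upper-quartile scaling (adjusted p = 0.2). NDUFA11 and NDUFB11, the other subunits of complex I that did not pass, had log2 fold changes of -0.52 and -0.38 and were lower with the replicate block (adjusted p = 2.58e-04 and 5.21e-04).

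**Figure D3:**
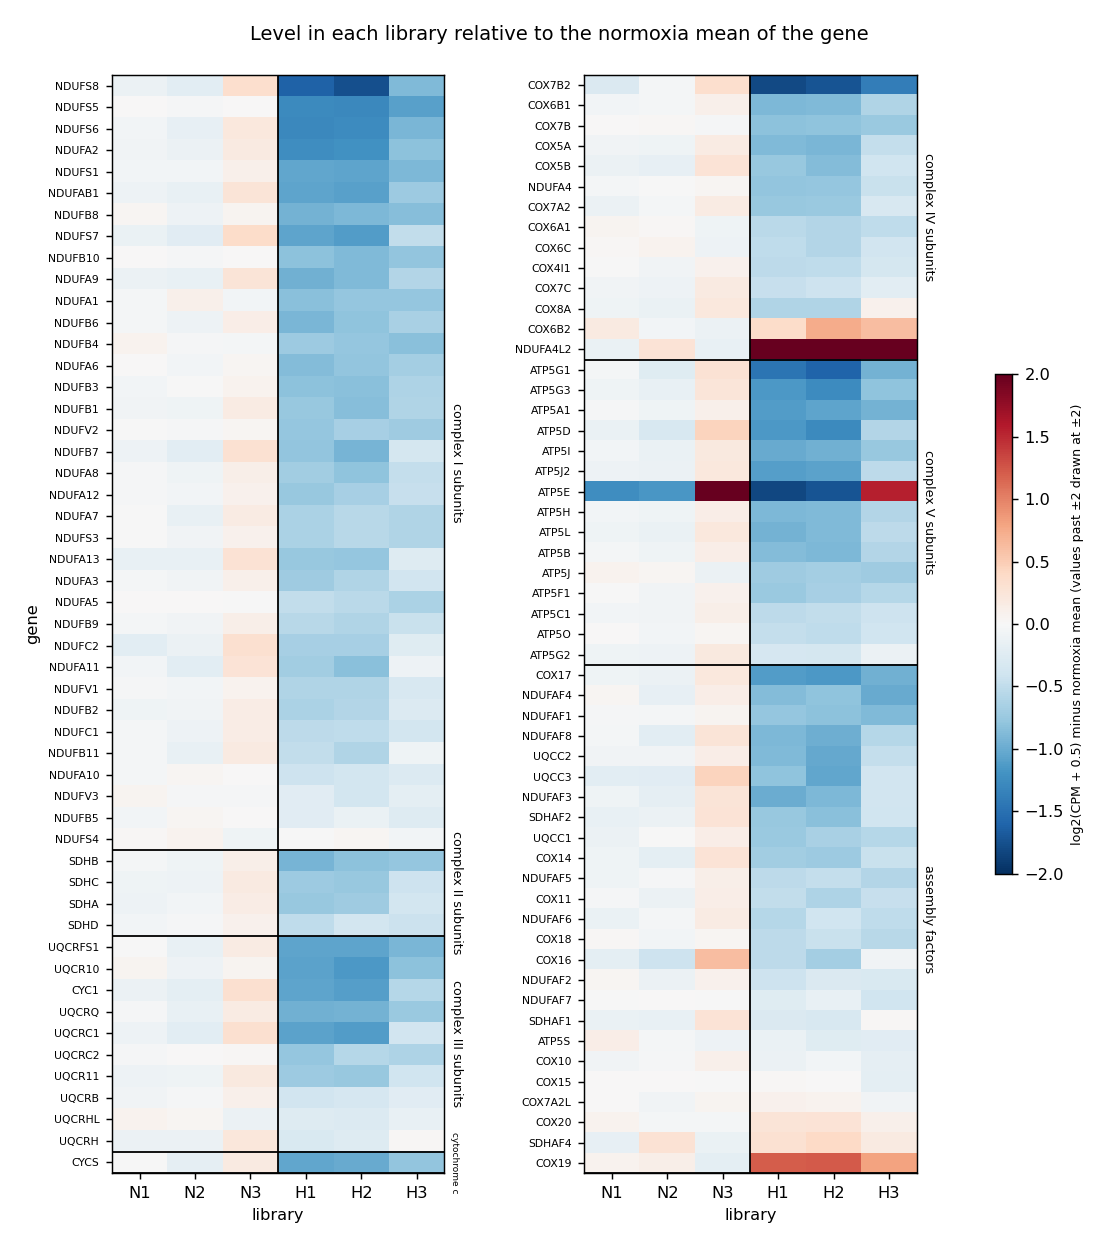
Level of 105 of the 106 members in each library, as log2(CPM + 0.5) minus the mean of the 3 normoxia libraries (N1 to N3 and H1 to H3 are the normoxia and hypoxia replicates). Blue is below and red above that mean, and values past ±2 are drawn at ±2. The hypoxia columns are blue for most genes, hypoxia 3 is paler than hypoxia 1 and 2 in many rows, and ATP5E is red in replicate 3 of both conditions.

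Complex II, succinate dehydrogenase, also belongs to the citric acid cycle, and its 4 subunits are all encoded in the nucleus. All 4 were lower, with a median of -0.62. The flavoprotein SDHA had 317.1, 328.4 and 379.3 CPM in normoxia and 202.0, 207.8 and 263.1 CPM in hypoxia, which gave a log2 fold change of -0.61 (SE 0.122, adjusted p = 0.00367). The iron-sulfur subunit SDHB showed the lowest fold change of the complex, from 103.4, 100.4 and 116.0 CPM to 55.8, 60.3 and 62.1 CPM, or -0.84 on the log2 scale (SE 0.0870, adjusted p = 2.10e-04). The membrane anchors SDHC and SDHD had log2 fold changes of -0.63 (adjusted p = 0.00284) and -0.44 (adjusted p = 0.0018). Conditions did not overlap for any of the 4 genes. No promoter was found for SDHC, so it was not searched for the words given below. The sites that hold TGCGCA, the word repeated in the motif of the transcription factor NRF1, are shown for SDHB and SDHD and for 1 of the 5 in SDHA, since this word is among those searched in the promoters below, with the word in capitals and 10 bases on either side (RefSeq promoters, GRCh38.p14).
SDHA, chr5:218143-218168, plus strand: gggtccgcttTGCGCAggcgcggcgc
SDHB, chr1:17054195-17054220, minus strand: actgcgctatTGCGCAcgctcgctgt
SDHD, chr11:112086752-112086777, plus strand: cagctgtgttTGCGCAtgcgcgacgg

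Complex III passes electrons from ubiquinol to cytochrome c. Of its 10 genes 8 were lower, all 10 fold changes were negative, and the median was -0.74. The Rieske iron-sulfur protein UQCRFS1 was measured at 109.5, 98.9 and 123.3 CPM in normoxia and 53.0, 52.9 and 57.9 CPM in hypoxia, the lowest fold change of the complex (-1.02, SE 0.0988, adjusted p = 1.68e-04). CYC1, cytochrome c1, fell from 254.0, 240.9 and 344.3 CPM to 132.5, 128.5 and 185.4 CPM, with a log2 fold change of -0.91 (SE 0.181, adjusted p = 0.00353). UQCRB had the smallest decrease that passed, -0.32 (adjusted p = 0.00945). The hinge protein gene UQCRH and its near-identical copy UQCRHL did not pass, with log2 fold changes of -0.18 (adjusted p = 0.235) and -0.24 (adjusted p = 0.108). UQCRH was lower with the replicate block (adjusted p = 0.0109), and reads that match both copies may have been lost or split between them. Cytochrome c itself, encoded by CYCS, had 454.9, 403.6 and 513.7 CPM in normoxia and 222.0, 226.0 and 262.5 CPM in hypoxia. All hypoxia libraries lay below all normoxia libraries, and the log2 fold change was -0.95 (SE 0.111, adjusted p = 3.38e-04).

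Complex IV, cytochrome c oxidase, reduces oxygen to water. It had 14 members, of which 13 were tested, 11 were lower and 1, NDUFA4L2, was higher, with a median of -0.60. COX4I1, the largest nuclear-encoded subunit, was at 396.6, 379.8 and 422.1 CPM in normoxia and 277.1, 281.4 and 313.1 CPM in hypoxia (log2 fold change -0.46, SE 0.0816, adjusted p = 0.00207). COX6A1 (-0.55), COX6B1 (-0.79), COX7A2 (-0.60) and COX7B (-0.79) were lower as well, with adjusted p from 1.26e-04 for COX7B to 0.0069 for COX7A2. COX8A did not pass. Its hypoxia 3 library, at 295.9 CPM, lay inside the normoxia range of 254.6 to 322.2 CPM, while hypoxia 1 and 2 were at 182.9 and 183.7 CPM. It was lower with the replicate block (log2 fold change -0.37, adjusted p = 0.00353) and without replicate 3 (-0.49, adjusted p = 2.87e-06).

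Several complex IV subunits have a second gene that is used in other tissues or conditions, and NDUFA4L2 was the paralog among those tested that rose. NDUFA4 was once assigned to complex I and is now counted with complex IV, and NDUFA4L2 is its paralog. NDUFA4L2 (chr12:57628686-57634475, minus strand, GRCh37) had 12, 21 and 9 counts in normoxia and 162, 112 and 353 counts in hypoxia. These correspond to 0.304, 0.564 and 0.291 CPM against 4, 3.06 and 3.86 CPM, and the log2 fold change of 3.22 (SE 0.294, adjusted p = 1.36e-04) was the highest of the members. NDUFA4 moved the other way, from 236.0, 239.7 and 248.2 CPM to 139.5, 140.6 and 176.8 CPM (-0.66, SE 0.104, adjusted p = 0.00117). Scaled for length, NDUFA4 still had the higher level in hypoxia, at 195.8 TPM against 8.13 TPM for NDUFA4L2, where TPM is counts over gene length scaled to a fixed total per library. NDUFA4L2 made up 0.202% to 0.406% of the TPM of the pair in normoxia and 3.64% to 4.74% in hypoxia. The log2 ratio of NDUFA4L2 to NDUFA4 was higher by 3.92 in hypoxia, or 15.1-fold, and the libraries of the conditions did not overlap (exact permutation p = 0.1, two-sided, the smallest possible).

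The promoter of NDUFA4L2, taken as 250 bases before to 50 bases after the annotated start, holds the core of the hypoxia response element, ACGTG or GCGTG, at 2 places on the same strand as the gene. Both are shown because this gene had the largest increase, with the core in capitals (RefSeq, GRCh38.p14, minus strand).
chr12:57240952-57240976: tgtatctccgGCGTGtggttagtgt
chr12:57240768-57240792: gtgtgcctccGCGTGggggcgtttc
They lie at -204 and -20 from the start. Such short words are common, and 47.3% of 22114 promoters of this length hold ACGTG or GCGTG on either strand.

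For the COX4 pair no such change could be measured. COX4I2 had 0 counts in 5 libraries and 1 count in hypoxia 1, which is under the floor of 3 counts in all of them, so no ratio to COX4I1 was computed. The tissue-specific subunit genes COX6A2 and COX7A1 had 0 counts in every library, and COX8C had 1 count in hypoxia 1 and in hypoxia 2. A count of 0 allows up to 0.0334 CPM in the deepest library and 0.0909 CPM in the shallowest, before normalization and for counting error only.

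COX7B2 and COX6B2, which are known mainly from testis, were both detected. COX7B2 had 286, 324 and 357 counts in normoxia and 90, 87 and 286 counts in hypoxia, where hypoxia 3 was sequenced deepest. In CPM the conditions did not overlap, at 7.25, 8.71 and 11.5 against 2.22, 2.38 and 3.13, and the log2 fold change of -1.81 (SE 0.223, adjusted p = 4.15e-04) was the lowest of all members. COX7B2 fell more than COX7B, so that its share of the TPM of the pair went from between 6.71% and 10.5% to between 3.78% and 4.95%, and the log2 ratio of COX7B2 to COX7B fell by 1.02 (exact permutation p = 0.1, two-sided, the smallest possible). COX6B2 had 6, 2 and 1 counts in normoxia and 10, 17 and 35 counts in hypoxia. The hypoxia libraries lay above the normoxia libraries in CPM, at 0.247, 0.465 and 0.383 against 0.152, 0.0537 and 0.0323. It met the minimum for members through its hypoxia libraries and was too low for the main test, so no fold change is given. COX7A2L, which acts in the joining of complexes III and IV, did not pass (log2 fold change 0.028, adjusted p = 0.783), while COX7A2 was lower.

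**Figure D4:**
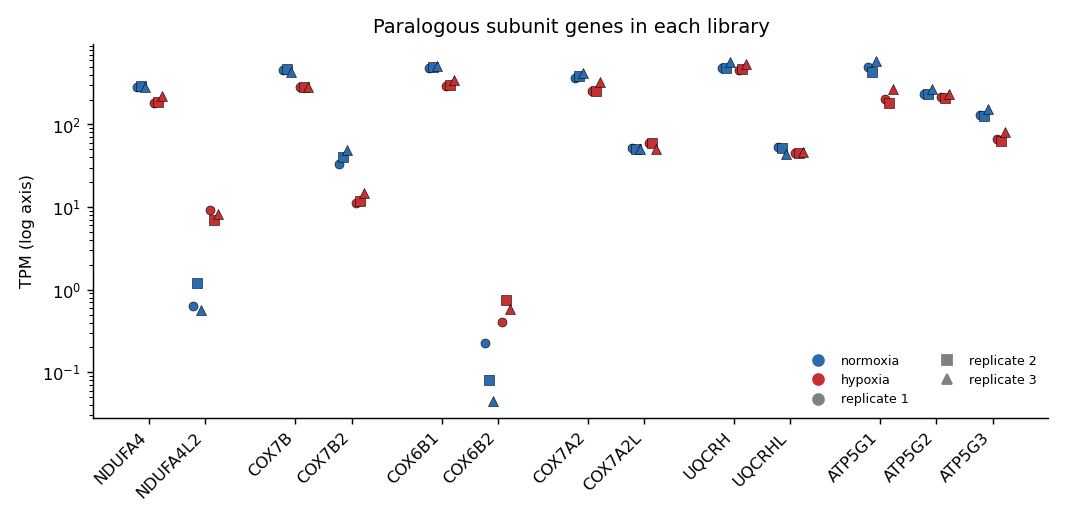
Level of paralogous subunit genes in each library, in TPM on a log axis. Blue is normoxia and red hypoxia, and circles, squares and triangles are replicates 1, 2 and 3. NDUFA4L2 rises from 0.8 to 8.13 TPM on average while NDUFA4 falls from 286.3 to 195.8 TPM, and COX7B2 falls from 41.0 to 12.5 TPM. After scaling for length, ATP5G1 falls to the level of ATP5G2. In CPM, without that scaling, the hypoxia means are 53.4 for ATP5G1 and 230.5 for ATP5G2.

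ATP synthase had the lowest median of complexes I to V, -0.78, and 13 of its 15 genes were lower, with negative fold changes for all 15. The differences between the medians of the complexes were not tested. In the catalytic head, the beta subunit gene ATP5B was the most abundant member per length, at 1994.9 TPM in normoxia and 1265.4 TPM in hypoxia. It had 1461.3, 1420.9 and 1641.8 CPM in normoxia and 827.7, 810.5 and 1004.2 CPM in hypoxia, which gave a log2 fold change of -0.78 (SE 0.110, adjusted p = 7.40e-04). The alpha subunit gene ATP5A1 was at 667.6, 645.5 and 735.4 CPM against 314.5, 326.4 and 355.1 CPM, or -1.04 (SE 0.0858, adjusted p = 9.38e-05). For both genes the conditions were separated by more than the range within either. ATP5O, in the stalk, had the smallest decrease that passed, -0.46 (adjusted p = 0.00107).

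The c subunit, which forms the rotating ring in the membrane, is encoded by ATP5G1, ATP5G2 and ATP5G3, whose mature proteins are the same. ATP5G1 (chr17:46970148-46973232, plus strand, GRCh37) had 129.8, 112.4 and 162.0 CPM in normoxia and 48.1, 43.4 and 68.7 CPM in hypoxia, the lowest fold change of the complex (-1.33, SE 0.196, adjusted p = 9.06e-04). ATP5G3 was lower too, with 181.1, 173.4 and 227.0 CPM against 86.8, 80.0 and 110.1 CPM (-1.07, SE 0.148, adjusted p = 6.71e-04). ATP5G2 did not pass, at 260.7, 258.2 and 318.7 CPM against 220.2, 216.5 and 254.8 CPM (-0.28, SE 0.109, adjusted p = 0.0581), although its libraries did not overlap and the replicate block called it lower (adjusted p = 0.00153). Of the TPM of the 3 genes, ATP5G1 gave 58.0%, 55.0% and 58.3% in normoxia and 41.8%, 40.0% and 46.4% in hypoxia. ATP5G2 gave 27.0%, 29.2% and 26.5%, then 44.2%, 46.2% and 39.8%. These shares rest on exon lengths of 646 bases for ATP5G1, 2793 for ATP5G2 and 3482 for ATP5G3. In CPM, ATP5G2 had the highest level of the 3 genes in both conditions. The mix of the 3 transcripts thus differed between conditions in every library, with a log2 ratio of ATP5G1 to ATP5G2 of 1.05 ± 0.122 in normoxia and -0.022 ± 0.221 in hypoxia (SD, n = 3; exact permutation p = 0.1, the smallest possible).

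ATP5E, which encodes the epsilon subunit and is named after its values were seen, could not be read like the others. It had 134, 133 and 1486 counts in normoxia and 84, 83 and 2417 counts in hypoxia, so that replicate 3 was higher than the mean of replicates 1 and 2 by 3.61 in normoxia and 3.33 in hypoxia on the log2 scale. Of the bases in its exons 66.3% also belong to the readthrough gene SLMO2-ATP5E on the same strand, and whether this bears on the jump was not tested. The log2 fold change was -0.78 (adjusted p = 0.607), and without replicate 3 it was -0.68 (adjusted p = 0.00448). With the replicate block it was -0.77 (adjusted p = 2.29e-04). In all, 87 of the 106 members share no exon bases with another gene of the files, and COX16 shares 87.6% with SYNJ2BP-COX16.

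The 25 assembly factors were more varied, with 16 lower, 2 higher and a median of -0.52. All 8 factors of complex I, NDUFAF1 to NDUFAF8, and all 3 of complex III were lower, with medians of -0.65 and -0.75. Of the 3 factors of complex II 1 (33.3%) was lower, and of the 9 factors of complex IV 4 (44.4%) were lower and 2 (22.2%) higher. Of all tested genes 29.1% were lower and 30.4% higher. These 2 groups hold few genes, and their difference from all genes was not tested. COX17, a copper chaperone that hands copper to complex IV, showed the lowest fold change of the factors, from 35.8, 34.9 and 44.0 CPM to 17.3, 16.8 and 19.3 CPM (-1.10, SE 0.116, adjusted p = 2.27e-04). COX19, a further protein of copper delivery in the intermembrane space, moved the other way, from 26.9, 27.9 and 22.4 CPM to 60.1, 60.9 and 45 CPM (1.10, SE 0.142, adjusted p = 4.95e-04). COX20, which helps to insert the mitochondrially encoded subunit COX2, was higher by a small amount, with 76.3, 71.2 and 71.2 CPM in normoxia and 87.4, 87.9 and 78.4 CPM in hypoxia (0.21, SE 0.0800, adjusted p = 0.0479). The conditions did not overlap for COX19 or COX20, but the call of COX20 was lost in 11 of 17 other fits, and that of COX19 in none of them. COX19 and COX20 promoters each hold the hypoxia response element core, printed here with the core in capitals (RefSeq, GRCh38.p14) because these were the other members that were higher. The COX20 promoter holds it once more on the opposite strand.
COX19, chr7:975587-975611, minus strand: ggcctgctcgACGTGctcggcgctc
COX20, chr1:244835298-244835322, plus strand: cgaggctcgtGCGTGtgagcacgcg

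Promoters of 300 bases were found for 88 of the 106 members, 75 by symbol and 13 by synonym. ACGTG or GCGTG was present, on either strand, in all 3 higher members, in 63.4% of the 71 lower members, in 71.4% of the 14 members that did not pass or were not tested, and in 55.6% of the promoters of protein-coding genes. TGCGCA, the NRF1 word, was present in 25 of the 71 lower members, or 35.2%, in none of the 3 higher ones and in 1 of the 14 others, where 11.1% of the promoters of protein-coding genes hold it. CCGGAAG, the core bound by ETS factors such as GABPA, was present in 28.2% of the lower members and 28.6% of the 14 others, against 15.1% of coding promoters. AAGATGG, a word of the YY1 motif, was present in 22.5% of the lower members and 14.3% of the 14 others, against 6.7%. None of the 3 higher members held CCGGAAG or AAGATGG. These are counts of words in a fixed window, and they do not show that a factor binds there. TGCGCA was absent from the promoters of COX7B2, NDUFS8 and ATP5G1, the members with the lowest fold changes. No promoter was found for NDUFS5, which came next. COX17 and NDUFS6 had less negative fold changes than these and hold the word. Printed with TGCGCA in capitals are 1 of the 2 sites in COX17 and the site in NDUFS6 (RefSeq, GRCh38.p14).
COX17, chr3:119677508-119677533, minus strand: cgggcctcctTGCGCAtgcgctgaag
NDUFS6, chr5:1801350-1801375, plus strand: ccagaagccgTGCGCAtgcgttagcg

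Genes outside the naming rule that supply or assemble the chain were also mostly lower, with a median of -0.58. Of the 30 genes 24 (80%) were lower, where 29.1% of all tested genes were lower. The highest fold change in the list was 0.011 (COA5, adjusted p = 0.918). SCO2, a copper-binding factor of complex IV, had 23.5, 19.3 and 26.6 CPM in normoxia and 8.28, 7.68 and 11.1 CPM in hypoxia, the lowest fold change of this list (-1.35, adjusted p = 5.60e-04). COA7, an assembly factor of complex IV, followed at -1.25 (adjusted p = 1.94e-04) and ATPIF1, the inhibitor of ATP synthase, at -1.09 (adjusted p = 2.60e-04). LRPPRC, which stabilizes mitochondrially encoded mRNAs, was lower by the smallest amount that passed in this list, -0.22 (adjusted p = 0.0363).

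Among 17 regulators of respiratory genes, 8 (47.1%) were lower and 2 (11.8%) higher, with a median of -0.46. Of all tested genes 29.1% were lower and 30.4% higher. With the replicate block 12 were lower and 3 higher, where 35.2% and 36.6% of all genes were called. The block added ESRRA, CHCHD2, YY1 and GABPB1 as lower and LONP1 as higher. AIFM1, a flavoprotein needed for the import of respiratory subunits through CHCHD4, fell from 81.7, 77.7 and 94 CPM to 26.9, 28.3 and 35.0 CPM (-1.49, SE 0.125, adjusted p = 9.84e-05), and CHCHD4 was lower too (-0.55, adjusted p = 0.00127). The transcription factor NRF1 was lower (-0.52, adjusted p = 0.00833), as were TFAM, which packages and transcribes mitochondrial DNA (-0.48, adjusted p = 0.0025), and the mitochondrial RNA polymerase POLRMT (-0.81, adjusted p = 0.00503). MXI1, a repressor of the MYC network and a known HIF target, was higher, with 26.7, 29.0 and 23.8 CPM in normoxia and 115.9, 127.2 and 113.8 CPM in hypoxia (2.17, SE 0.0998, adjusted p = 2.03e-05). GABPA was higher by 0.44 (adjusted p = 0.00494), and the gene ATP5J overlaps it on the opposite strand over 34.8% of its own exon bases. PPARGC1A, which encodes the coactivator PGC-1α, had a log2 fold change of 0.19 with overlapping libraries (adjusted p = 0.426).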

How the data were processed

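The authors prepared stranded mRNA libraries and deposited 1 file of raw counts per gene for each of the 6 libraries, without normalization. The submitters' processing notes name FastQC 0.11.5, STAR 2.5.2a, featureCounts 1.5.1 and the build hg19 (GRCh37). The strand setting and the handling of reads with several matches are not given in the sources used here. Conditions and replicate numbers were taken from the titles of the libraries.

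The software was edgeR 4.0.16, DESeq2 1.42.0 and limma 3.58.1 in R 4.3.3, with matplotlib 3.10.9 in Python 3.11.15 for figures. All genes were filtered with filterByExpr (minimum count 10, minimum total 15), scaled by TMM and fitted with edgeR's quasi-likelihood model with condition as the only term. Two-sided p-values were adjusted by Benjamini-Hochberg over the 15657 tested genes, and calls used 0.05. CPM values are TMM-normalized. TPM values divide counts by the union exon length in the files and carry no TMM factor. The SE was derived from the fold change and its F statistic. The fit was also run on simulated counts with few changed genes and no replicate effect. That run cannot show how the fit performs where many genes change and replicates differ, as here. The study names edgeR's exact test, which was an alternative along with DESeq2, other scaling factors and filters, a stricter threshold, a replicate block and leaving out libraries.

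The study's methods describe the samples as paired. Same-numbered libraries deviated together from their condition means (correlations over tested genes of 0.43, 0.50 and 0.62). Replicates 1 and 2 also did so across numbers (0.30 and 0.33) and opposite to replicate 3. Over the members the correlations were stronger, at 0.87, 0.8 and 0.92 for same-numbered libraries and 0.77 and 0.82 across numbers. The block lowered the biological coefficient of variation from 0.141 to 0.0751.

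The members, the gene lists and the tests were chosen with earlier results of these data known. Named genes were the paralog sets, the catalytic and electron-carrying subunits, the 5 largest increases and decreases among called members that averaged 100 counts or more and kept 1 direction in all pairs, and the extremes of each complex. Only 3 members met the rule for increases. NDUFA4L2 reached its minimum of 100 counts only through its hypoxia libraries, and it was also named as part of a paralog set. Promoter sequences are from RefSeq. A single value compared between 3 and 3 libraries used an exact permutation test, whose smallest p is 0.1. Floors of 3 counts cover counting error only. Values of 2 genes are not reported here, and the heat map leaves out a member.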

Additional observations from a re-analysis of the deposited data

Results flagged for a closer look

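Of the matching names that the rule left out for their form, 6 had a hyphen and 5 a pseudogene suffix. Among them 3 were higher in hypoxia, COX10-AS1, SDHAP3 and SDHAP1, where 30.4% of all tested genes were higher. NDUFB2-AS1 and NDUFA6-AS1 were lower, where 29.1% of all tested genes were lower. SDHAP2, NDUFAF4P1 and NDUFV2-AS1 did not pass, and ATP5J2-PTCD1, NDUFC2-KCTD14 and UQCRBP1 were not tested. COX10-AS1, an antisense gene at COX10, had 6.54, 6.96 and 5.85 CPM in normoxia and 13.3, 14.5 and 10.9 CPM in hypoxia (log2 fold change 0.99, adjusted p = 9.04e-04, edgeR's quasi-likelihood test), while COX10 itself did not pass (-0.12, adjusted p = 0.286). The libraries are stranded, but the strand setting of the counting is not given in the sources used here, so reads of the 2 genes may be mixed where they overlap. SDHAP3, a copy of part of SDHA, had 7.35, 7.95 and 6.01 CPM against 13.3, 14.4 and 13.4 CPM (0.94, adjusted p = 7.55e-04). SDHAP1, a further copy, had 25, 25.5 and 26.2 CPM against 30.2, 29.4 and 30.4 CPM (0.23, adjusted p = 0.0312). The conditions did not overlap for any of the 3, and SDHA was lower in the same libraries. Reads that SDHA shares with these copies may have been counted for either gene or for neither.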

How the results depend on the processing

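Of the 87 lower members, 63 were lower in all 17 other fits, and 2 of the 3 higher ones were higher in all of them. The fits called no member in opposite directions. The number of lower members was 77 to 90 over the other tests, scalings, filters and the stricter threshold, where 20.2% to 29.8% of all genes were lower. It was 78 to 90 with 1 library left out, where 22.5% to 31.1% of all genes were lower. Without replicate 1, 2 and 3 of both conditions it was 63, 77 and 94, where 13.9%, 19.8% and 34.8% of all genes were lower. With the replicate block 95 were lower and 4 higher, which kept the 87 and added 8, and the calls of COX8A, UQCRH, ATP5G2, ATP5E, NDUFA11 and NDUFB11 that it changed are given beside their values. The block also called SDHAF1 and COX16 lower and SDHAF4 higher. Upper-quartile factors, which moved the median of all genes by 0.16, gave medians of -0.50 for complex I, -0.46 for complex II, -0.44 for complex IV and -0.36 for assembly factors. Library sizes alone, which moved it by 0.11, gave -0.40 for assembly factors. Leaving out 1 library or 1 replicate number gave medians of -0.77 to -0.53 for complex IV, with -0.77 without hypoxia replicate 3. The log2 fold change of COX7A2L turned to -0.025 without normoxia replicate 2 and -0.035 without replicate 2, with no call in either. Over the 36 named genes that were fitted, 604 of 648 alternative values kept direction and call, and 23 of the 30 lost calls were of COX20 and NDUFB5. The cause of these changes was not tested. The log2 ratio of NDUFA4L2 to NDUFA4 ranged from 3.66 to 4.28 with libraries left out. The planned ratio of COX4I2 to COX4I1 was not run, as COX4I2 was under 3 counts in every library.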

Other observations

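Among the members, abundance per length kept a similar order in both conditions. The most abundant complex I gene in normoxia was NDUFB9, at 766.7 TPM, and the least abundant was NDUFC2, at 23.0 TPM. The Spearman correlation between the mean TPM of the conditions was 0.946 over the 37 genes of complex I, 0.8 over the 4 of complex II, 0.964 over the 10 of complex III, 0.982 over the 14 of complex IV and 0.979 over the 15 of ATP synthase. These are across genes of the same libraries, which share depth and gene length, and genes are not independent replicates. The median level of complex IV genes, 439.9 TPM in normoxia and 298.2 TPM in hypoxia, was the highest of complexes I to V.

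Antisense genes left out by their names did not all move one way. NDUFB2-AS1 had 1.24, 1.05 and 1.00 CPM in normoxia and 0.716, 0.437 and 0.481 CPM in hypoxia (log2 fold change -1.02, adjusted p = 0.0134, edgeR's quasi-likelihood test), and NDUFA6-AS1 had 2.36, 1.77 and 1.58 CPM against 1.11, 1.01 and 1.06 CPM (-0.85, adjusted p = 0.0135). Their sense genes NDUFB2 and NDUFA6 were lower as well, with log2 fold changes of -0.49 and -0.79.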
